A study of Mus musculus with 6 samples.

Results

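Heat shock chaperones of the cytosol and mitochondria were examined in mouse tumours grown from transformed hepatoblasts. The set held 34 genes, chosen by symbol as members of the HSP70, HSP110, small heat shock protein, HSP90, mitochondrial chaperonin, J protein, co-chaperone and heat shock factor families. The rule names symbols only and uses no measured value, though the set was drawn up with earlier results of these data known. All 34 were among the 21671 named genes of the deposited count table and among the 14809 genes with enough counts to be tested. The first group was 3 libraries from tumours collected 4 h after a first oral gavage of 300 µl water holding doxycycline at 200 mg/ml, with the genotype label ST18 knockdown. The other was 3 libraries from untreated tumours with the genotype label wild type. The tumours were subcutaneous, in CD1 nude ho mice, a strain without a thymus that still has innate immune cells. Per the treatment protocol, which has the same wording for every library, the injected cells carried the TtRMPVIR shST18 vector, whose short hairpin RNA against St18 is made when doxycycline is present. Since no hairpin-free tumour was given the drug, the effects of doxycycline, of gavage and of the hairpin cannot be told apart. The design text speaks of triplicates, and no source used here says that each library came from a separate mouse. The p-values therefore measure the spread between libraries, which may be partly technical.

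Chaperones bind unfolded stretches of other proteins and keep them from clumping. HSP70 proteins hold and release clients in cycles driven by ATP, J proteins deliver those clients, HSP110 proteins recharge HSP70 with fresh nucleotide, and HSP90 completes the folding of kinases and hormone receptors. Small heat shock proteins hold unfolding proteins without using ATP, and several of them are abundant in striated muscle. Heat shock factor HSF1 switches on many of these genes when unfolded proteins accumulate, through repeats of a short DNA element near their starts.

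After doxycycline the set did not move as a block. The small heat shock proteins Cryab and Hspb7 rose about 6-fold, the inducible HSP70 gene Hspa1b and the HSP110 gene Hsph1 fell, and 30 of 34 members did not pass the test (edgeR quasi-likelihood test, adjusted p under 0.05). The 2 members called higher were 5.88% of the set, against 2.84% of all genes tested. The 2 called lower were also 5.88% of the set, against 2.18% of all genes tested. All 3 doxycycline libraries lay above all 3 untreated libraries for 5 members (14.7%), against 15.2% of all genes tested, a share near the background. They lay below for 9 members (26.5%), against 14.4% of all genes tested. An unadjusted p under 0.05 was reached by 12 of 34 members (35.3%), against 23.9% of all genes tested. The log2 fold changes of doxycycline over untreated ran from -1.19 to 2.69, with 16 positive and 18 negative, and their median was -0.04, beside 0.01 over all genes tested. Levels are given as CPM, normalised counts scaled by each library's TMM-adjusted total. The summed level of the set was 3482, 3197 and 3025 CPM in doxycycline replicates 1, 2 and 3. It was 3502, 3226 and 3390 CPM in untreated replicates 1, 2 and 3. The groups thus overlapped in this sum of RNA levels, in which abundant members weigh most.

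**Figure D1:**
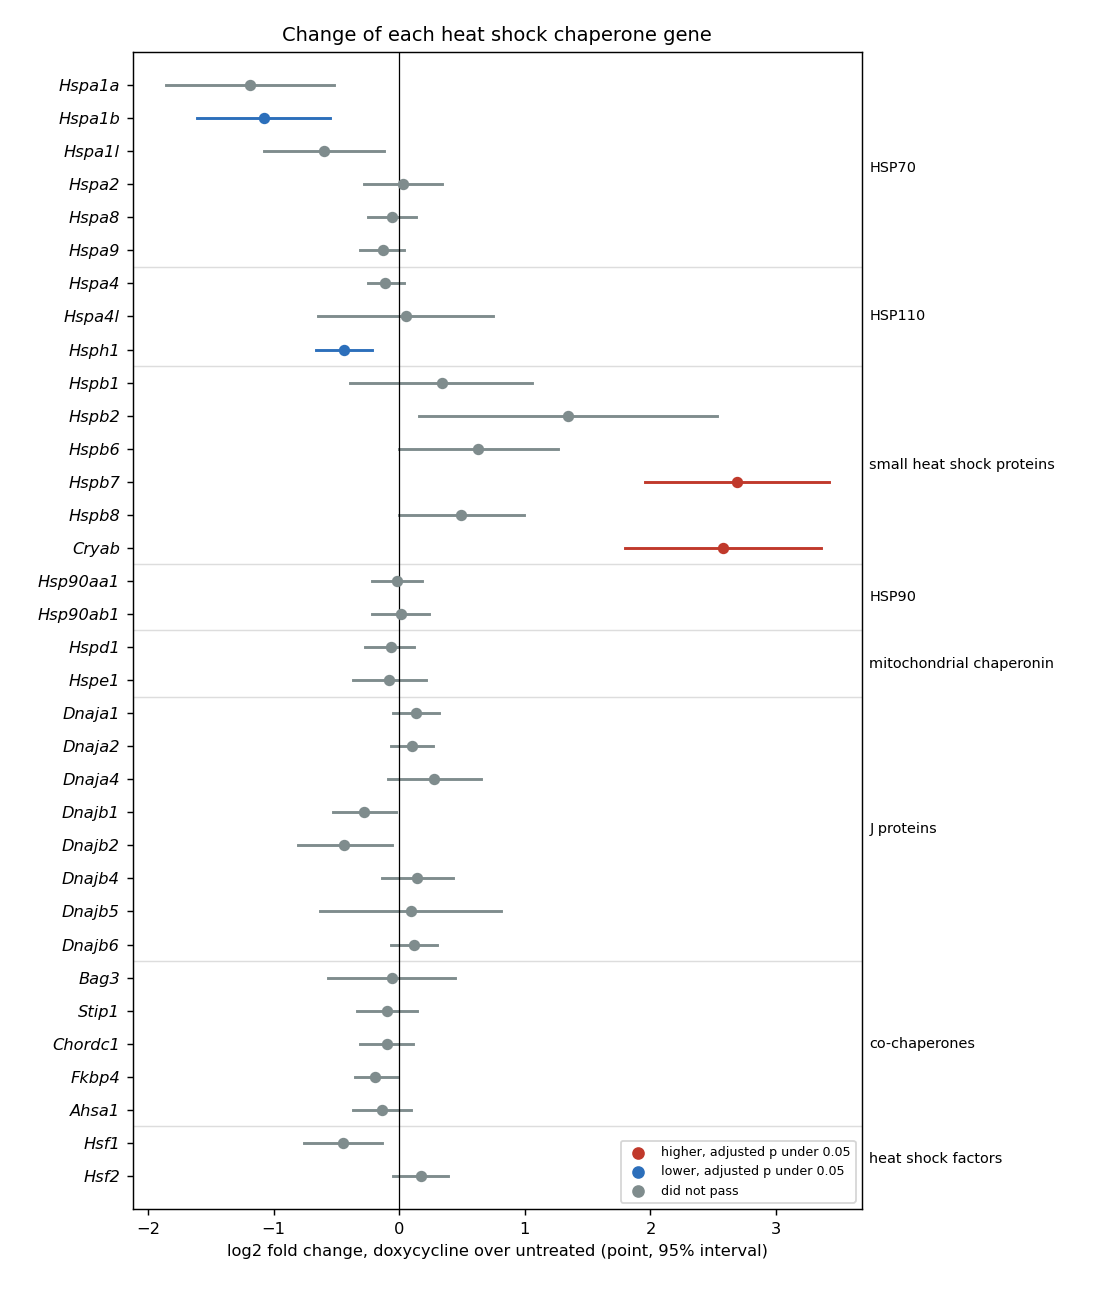
Log2 fold change of doxycycline over untreated for each of the 34 members, grouped by role, with bars for the 95% interval of the edgeR fit (n = 3 libraries per group). Hspb7 at 2.69 and Cryab at 2.58 lie far to the higher side, Hspa1a at -1.19 and Hspa1b at -1.08 farthest to the lower side, and most members lie near 0.

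The libraries themselves set limits on these values. Totals ran from 12090309 to 15899374 counts in the doxycycline group and from 13148155 to 16169043 in the untreated group. St18, the target of the hairpin, had 34, 12 and 61 counts in doxycycline replicates 1, 2 and 3, against 12, 23 and 19 in untreated replicates 1, 2 and 3. As a group, the libraries labelled ST18 knockdown were not shown to have less St18 (log2 fold change 1.03, 95% interval -0.22 to 2.29, adjusted p = 0.298). Doxycycline replicates 1 and 3, at 2.85 and 3.82 CPM, lay above the highest untreated library, at 1.44 CPM. Doxycycline replicate 2, at 0.824 CPM, lay below the lowest untreated library, at 0.907 CPM, each on 12 counts. Alb and Hnf4a, which define hepatocytes, were at or near 0 in every library, with at most 0.151 and 1.08 CPM, and the fetal liver gene Afp lay between 0.503 and 1.35 CPM. Krt8, Krt18 and Sox9, found in epithelial and biliary cells, lay between 21.3 and 89.8 CPM in all 6 libraries. In bulk tumours a lower level can reflect fewer cells of a type or less RNA per cell, and these cannot be told apart.

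Among the HSP70 genes the stress-inducible pair lay lower in every doxycycline library, with Hspa1b called and Hspa1a not. The constitutive members Hspa8 and Hspa9 were not called, and the difference between them and the pair was not tested. Hspa1a and Hspa1b encode the inducible cytosolic HSP70, lie next to each other on chromosome 17 and share most of their sequence. Their promoters are shown because the pair differed most in the lower direction and because the same HSF1-type element stands at the same place in both. The sequences are RefSeq's for build GRCm38.p6, from 250 bases before to 50 bases after the annotated start, read 5′ to 3′ on the gene's strand. Capitals mark 2 facing units of the heat shock element, GAANNTTC or TTCNNGAA. Hspa1a is chr17:34972107-34972406 and Hspa1b is chr17:34959189-34959488, both on the minus strand.
Hspa1a: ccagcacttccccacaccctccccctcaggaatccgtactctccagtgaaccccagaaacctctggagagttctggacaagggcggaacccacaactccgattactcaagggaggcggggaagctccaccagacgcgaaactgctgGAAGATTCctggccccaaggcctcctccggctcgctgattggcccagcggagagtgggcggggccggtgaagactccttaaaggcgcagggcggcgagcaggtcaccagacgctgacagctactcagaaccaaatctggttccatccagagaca
Hspa1b: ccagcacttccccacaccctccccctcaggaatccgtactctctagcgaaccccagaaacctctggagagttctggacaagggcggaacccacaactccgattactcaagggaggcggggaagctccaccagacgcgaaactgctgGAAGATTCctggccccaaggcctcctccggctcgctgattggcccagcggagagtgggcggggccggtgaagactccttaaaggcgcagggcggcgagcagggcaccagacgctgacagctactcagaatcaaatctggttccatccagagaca
The windows were identical in 296 of 300 aligned columns (98.7%), and the element GAAGATTC began at -104 in each, with the start base counted as 0.

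Hspa1a had 10.4, 7.07 and 6.70 CPM in doxycycline replicates 1, 2 and 3, against 22.2, 12.3 and 20.5 CPM in untreated replicates 1, 2 and 3. Every doxycycline library lay below every untreated one, and untreated replicate 2 was the lowest of its group. Means were 8.05 ± 2.03 CPM after doxycycline and 18.3 ± 5.29 CPM untreated (SD, n = 3 each), a log2 fold change of -1.19 (SE 0.29, 95% interval -1.86 to -0.52) that missed the threshold at an adjusted p of 0.0552. Hspa1b had 10.6, 10.2 and 8.96 CPM in the doxycycline libraries, against 22.9, 15.3 and 24.8 CPM in the untreated libraries. The groups again did not overlap, and the doxycycline libraries lay close together. Hspa1b averaged 9.92 ± 0.864 CPM after doxycycline and 21.0 ± 5.05 CPM untreated, 0.473 times the untreated level (log2 fold change -1.08, SE 0.23, adjusted p = 0.0393).

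These 2 genes were not measured independently. Of all 50-base stretches of Hspa1b transcripts, 62.3% also occur in Hspa1a, and 58.8% of those of Hspa1a occur in Hspa1b, so how reads were split between them is uncertain. Their summed counts avoid that split, apart from reads that were dropped. The sum was 251, 251 and 250 counts after doxycycline, against 597, 439 and 672 counts untreated, and fell to 0.457 times the untreated level (log2 fold change -1.13, SE 0.22, 95% interval -1.64 to -0.62, adjusted p = 0.0305). Leaving out any 1 library kept the fold change of the sum between -1.35 and -1.02, but the call was lost without doxycycline replicate 3 (adjusted p = 0.0924), without untreated replicate 1 (0.150) and without untreated replicate 3 (0.156). The call of Hspa1b was kept in 1 of the 6 fits that left out 1 library and in 5 of 13 alternatives in all. It was also lost with limma-voom (adjusted p = 0.0584), with the replicate number as a block (0.0776) and with GC and length offsets (0.0515).

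Hspa1l, an HSP70 gene best known from testis, lies beside the pair on the opposite strand. It had 8.12, 7.69 and 9.46 CPM in the doxycycline libraries, against 13.5, 11.7 and 13.1 CPM in the untreated libraries. All doxycycline libraries were lower, and the log2 fold change of -0.60 (95% interval -1.08 to -0.12) did not pass the test (adjusted p = 0.132). An antisense gene, Gm10501, overlaps 71.9% of the exonic bases of Hspa1l, and reads of the pair could not be told apart without strand. Hspa8, the constitutive HSC70 of every cell, had 280, 271 and 234 CPM after doxycycline and 287, 257 and 274 CPM untreated, with overlapping groups (log2 fold change -0.06, 95% interval -0.25 to 0.13). Hspa9, mortalin, pulls imported proteins into the mitochondrial matrix. Its level was 280, 275 and 248 CPM after doxycycline and 310, 279 and 292 CPM untreated, and the log2 fold change was -0.13 (95% interval -0.31 to 0.04). Hspa2, a further HSP70 gene with a main role in sperm development, had nearly the same values in both groups, 34 to 40.5 CPM after doxycycline and 32.7 to 39.5 CPM untreated (log2 fold change 0.03). The HSP70 family thus had 1 member called lower, 0 called higher and 5 not passed. Its median log2 fold change of -0.37 is near the value of no single gene. The neighbours Hspa1a, Hspa1b and Hspa1l were at -1.19, -1.08 and -0.60, and Hspa9, Hspa8 and Hspa2 at -0.13, -0.06 and 0.03.

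**Figure D2:**
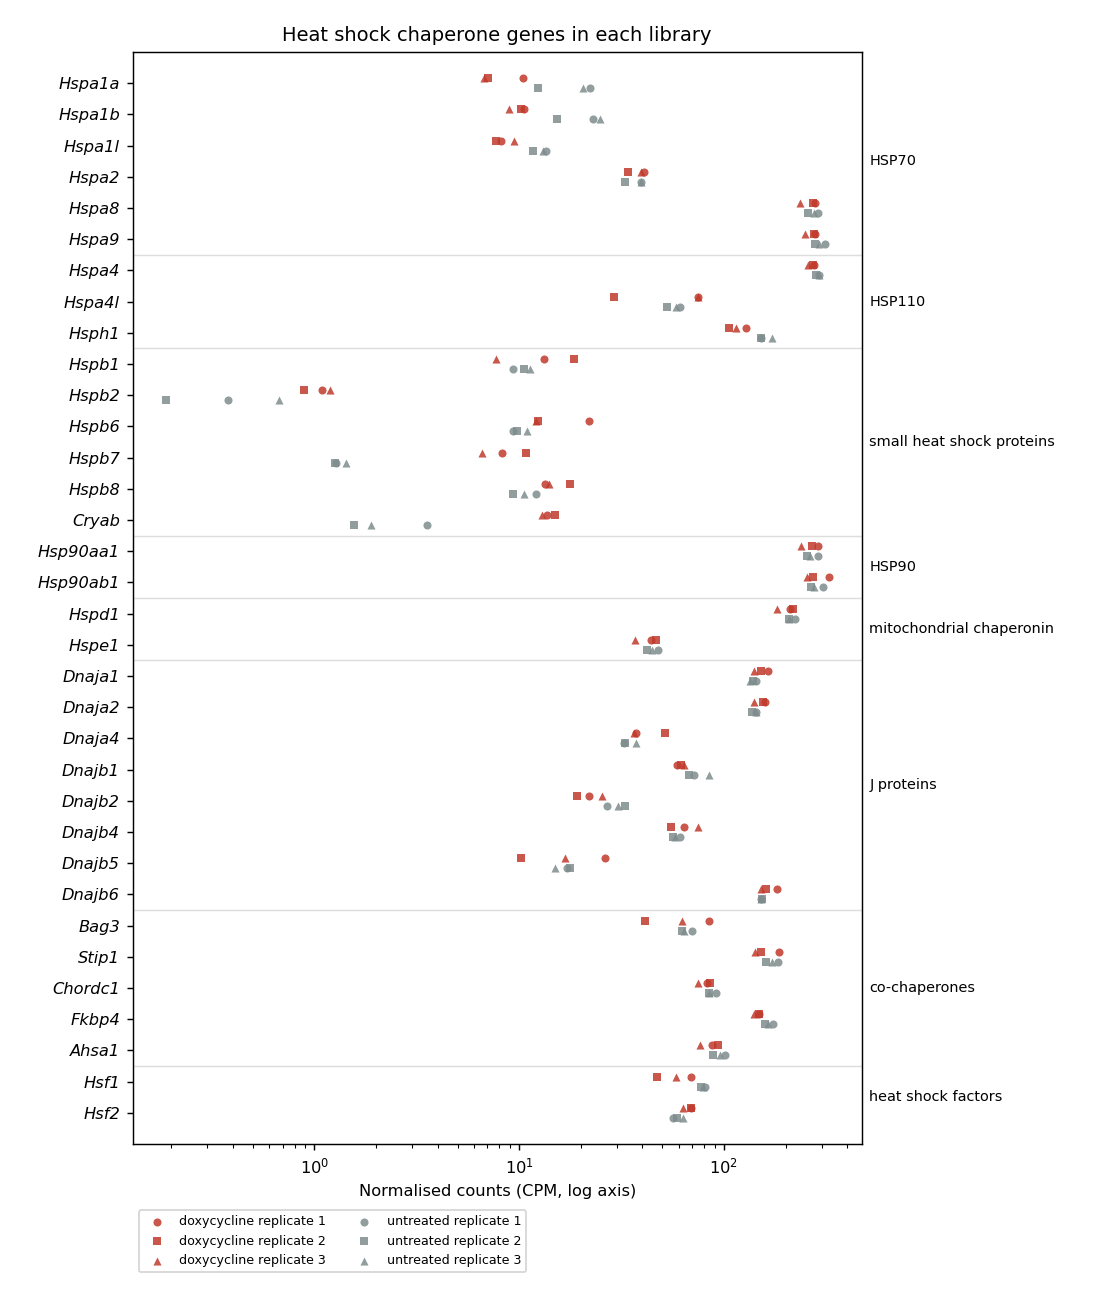
Level of each member in each library, in CPM on a log axis, with the doxycycline libraries (red) above the untreated libraries (grey) of each gene and 1 symbol per library. Hspa1a and Hspa1b lie lower after doxycycline, Cryab and Hspb7 higher, and the HSP90, chaperonin and most J protein genes overlap.

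The HSP110 proteins are distant relatives of HSP70 that exchange its nucleotide and hold unfolded clients. Hsph1, also called HSP105, was the member called lower. Its promoter is shown because it carries 3 facing units in a row, the arrangement to which a trimer of HSF1 binds, beside a second facing pair. The window is chr5:149636287-149636586 on the minus strand of GRCm38.p6, with all matched units in capitals.
Hsph1: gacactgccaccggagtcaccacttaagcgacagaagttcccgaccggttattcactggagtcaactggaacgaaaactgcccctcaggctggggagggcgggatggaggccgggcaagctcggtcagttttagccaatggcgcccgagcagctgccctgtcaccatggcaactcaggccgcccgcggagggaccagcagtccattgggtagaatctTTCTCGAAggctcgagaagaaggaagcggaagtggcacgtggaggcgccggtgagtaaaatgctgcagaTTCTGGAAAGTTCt
The pair began at -33 and the triple at 36, counted in the same way, and RefSeq lists a second start for the gene whose window holds the same elements.

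Hsph1 had 128, 106 and 115 CPM in doxycycline replicates 1, 2 and 3, against 151, 151 and 172 CPM in untreated replicates 1, 2 and 3. The highest doxycycline library lay below the lowest untreated one. It averaged 116 ± 10.9 CPM after doxycycline and 158 ± 12.4 CPM untreated, 0.736 times the untreated level (log2 fold change -0.44, SE 0.10, 95% interval -0.66 to -0.22, adjusted p = 0.0395). The call was kept without doxycycline replicate 1 or 2 and lost without doxycycline replicate 3 or any 1 untreated library (adjusted p up to 0.208), while the fold change stayed between -0.52 and -0.38. Hspa4, the ubiquitous APG-2, had 276, 273 and 256 CPM after doxycycline, against 292, 283 and 292 CPM untreated. These groups did not overlap either, but the log2 fold change was small, at -0.11 (95% interval -0.25 to 0.04, adjusted p = 0.343). Hspa4l had 74.3, 28.9 and 74.7 CPM after doxycycline and 61.1, 52.7 and 58.1 CPM untreated. Doxycycline replicates 1 and 3 lay above all untreated libraries and replicate 2 below all of them. With every library the log2 fold change of Hspa4l was 0.05 (adjusted p = 0.944), and without doxycycline replicate 2 it was 0.38 and passed (adjusted p = 0.0366).

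All 6 small heat shock protein genes had a positive log2 fold change, with a median of 0.99, and 2 of them passed the test. Without doxycycline replicate 2 the value for Hspb1 was 0.00. In 5 of 6 all doxycycline libraries lay above all untreated ones, against 15.2% of all genes tested, the exception being Hspb1. Hspb2 passed the filter on low counts only through the doxycycline group. Without it, 5 of 5 were positive, with a median of 0.63, and the groups did not overlap in 4. Cryab encodes alphaB-crystallin, a lens protein that is also abundant in heart and skeletal muscle, where it binds desmin and titin. It had 13.7, 15 and 13 CPM in doxycycline replicates 1, 2 and 3, against 3.55, 1.57 and 1.89 CPM in untreated replicates 1, 2 and 3. The doxycycline libraries lay within a narrow range, all above the untreated ones. Means were 13.9 ± 0.977 CPM after doxycycline and 2.34 ± 1.06 CPM untreated, a 5.97-fold rise (log2 fold change 2.58, SE 0.34, 95% interval 1.80 to 3.36, adjusted p = 0.0123).

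Hspb7 encodes cvHSP, a small heat shock protein of heart and skeletal muscle that binds filamin C. Its RefSeq promoter, chr4:141420529-141420828 on the plus strand of GRCm38.p6, is shown because Hspb7 was called higher. No facing pair of units is in this window. The windows of Hspa1l, Dnajb1 and Dnajb2, which lay lower, held no pair either. Hspb1, Hspb6 and Hspb8, with positive log2 fold changes, each had a window with a pair. In all, 15 of 27 members with a window held a pair. The relation of the element to the changes was not tested.
Hspb7: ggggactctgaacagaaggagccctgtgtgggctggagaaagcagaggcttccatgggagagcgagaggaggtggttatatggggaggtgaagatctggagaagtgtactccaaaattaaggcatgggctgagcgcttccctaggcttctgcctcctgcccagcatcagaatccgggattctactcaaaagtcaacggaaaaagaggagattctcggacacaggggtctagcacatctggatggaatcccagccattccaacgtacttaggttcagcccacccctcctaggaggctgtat
Hspb7 had 8.21, 10.8 and 6.58 CPM after doxycycline, against 1.28, 1.26 and 1.42 CPM untreated. Behind these levels stood 98, 158 and 105 counts after doxycycline and 17, 20 and 21 counts untreated, so the untreated level was low and even. Means were 8.54 ± 2.15 CPM after doxycycline and 1.32 ± 0.0853 CPM untreated, a 6.44-fold rise (log2 fold change 2.69, SE 0.32, 95% interval 1.96 to 3.42, adjusted p = 0.00751). Leaving out 1 library kept the log2 fold change between 2.34 and 3.0 for Cryab and between 2.47 and 2.85 for Hspb7. The call of Cryab was lost without untreated replicate 2 (adjusted p = 0.0587) or 3 (0.0845). The call of Hspb7 was lost without untreated replicate 1 (0.0687), 2 (0.0555) or 3 (0.0661).

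The other small heat shock protein genes moved less or less evenly. Hspb2, the muscle protein MKBP, which binds the myotonic dystrophy kinase, lies head to head with Cryab. It had 1.09, 0.892 and 1.19 CPM after doxycycline, against 0.378, 0.188 and 0.674 CPM untreated, on only 13, 13 and 19 counts against 5, 3 and 10. The groups did not overlap, the log2 fold change was 1.34 (95% interval 0.16 to 2.53), and it did not pass (adjusted p = 0.162). Cryab overlaps 30.2% of the exonic bases of Hspb2 on the other strand. Hspb6, HSP20 of smooth and striated muscle, had 21.9, 12.4 and 12.1 CPM after doxycycline, against 9.29, 9.74 and 10.9 CPM untreated. Doxycycline replicate 1 stood far above the rest, and the log2 fold change was 0.63 (adjusted p = 0.209). Hspb8, which works with Bag3 to clear damaged proteins in muscle, had 13.3, 17.7 and 14.0 CPM after doxycycline, against 12.1, 9.30 and 10.6 CPM untreated (log2 fold change 0.49, adjusted p = 0.210). Hspb1, HSP25 of the mouse and the most widely expressed of the family, had 13.2, 18.6 and 7.71 CPM after doxycycline and 9.29, 10.6 and 11.3 CPM untreated. The doxycycline libraries of Hspb1 lay on both sides of the untreated range (log2 fold change 0.34, adjusted p = 0.566), and 51.6% of its 50-base stretches also occur in the pseudogene Hsp25-ps1.

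Markers of skeletal muscle were, like Cryab and Hspb7, higher after doxycycline as a list. Of 15 muscle markers (myosins, troponins, Ckm, Acta1 and others), 9 were called higher and 0 lower (median log2 fold change 3.60). No marker was at 0 over the untreated libraries. Of those called, Myh4 (0.302 to 0.628 CPM untreated), Pvalb (0.0674 to 0.126 CPM untreated), Ckm and Myl1 passed the filter on low counts only through the doxycycline group. The summed level of the 15 markers was 1353, 2732 and 399 CPM in doxycycline replicates 1, 2 and 3. It was 72.3, 211 and 87.0 CPM in untreated replicates 1, 2 and 3. After doxycycline Cryab and Hspb7 ranked as this sum did, highest in replicate 2 and lowest in replicate 3. Among the untreated libraries Cryab was highest in replicate 1 (3.55 CPM), where the sum was lowest. It was lowest in untreated replicate 2 (1.57 CPM), where the sum was highest. The part of muscle tissue in the changes of Cryab, Hspb7 and Hspb2 was not tested. In doxycycline replicate 2 the muscle sum was 6.85 times that of doxycycline replicate 3, while Cryab was 1.15 times, Hspb7 1.65 times and Hspb2 0.750 times as high. Doxycycline replicate 3 and untreated replicate 2 were the libraries of the 2 groups nearest in the muscle sum. In doxycycline replicate 3 the muscle sum was 1.89 times, Hspb2 6.32 times, Hspb7 5.24 times and Cryab 8.30 times the value of untreated replicate 2. The other small heat shock protein genes were below the ratio of the sum there, with Hspb8 at 1.5, Hspb6 at 1.24 and Hspb1 at 0.726 times. Most of that sum was Ttn, with 297 of 399 CPM in doxycycline replicate 3 and 156 of 211 CPM in untreated replicate 2. Single markers differed widely between these 2 libraries. Myh4 had 25.4 CPM in doxycycline replicate 3 against 0.628 CPM in untreated replicate 2, and Myh1 had 6.64 against 10.6 CPM. Markers of fibroblasts and mural cells, 3 of 14 called higher, summed to 1790 to 2047 CPM after doxycycline and 1325 to 1375 CPM untreated. Macrophage markers, 3 of 9 called higher, summed to 420 to 577 CPM after doxycycline and 317 to 369 CPM untreated. Neutrophil markers, 1 of 9 called lower, summed to 49.1 to 88.0 CPM after doxycycline and 110 to 183 CPM untreated. The 14 hepatoblast and biliary markers summed to 141 to 230 CPM after doxycycline and 138 to 226 CPM untreated. The part of these cell types in the chaperone values was not tested.

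**Figure D3:**
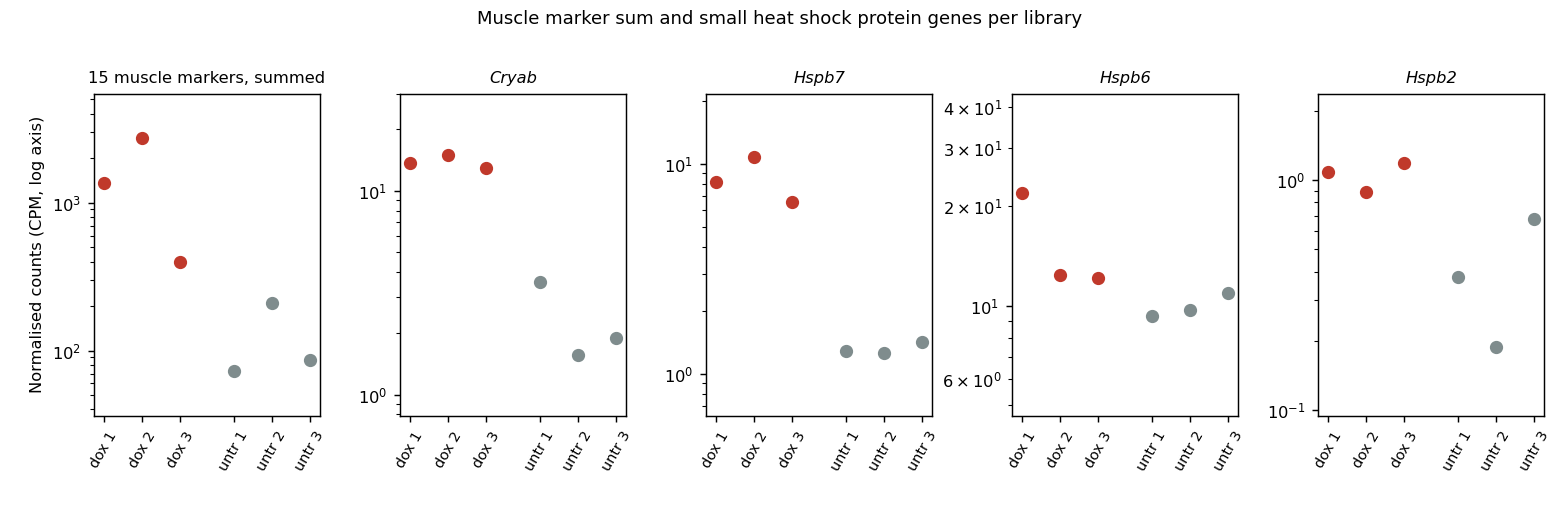
Level in each library, in CPM on log axes with a scale for each panel, of the sum of 15 skeletal muscle markers and of Cryab, Hspb7, Hspb6 and Hspb2, with doxycycline (dox) libraries left of untreated (untr) libraries. The muscle sum runs from 399 to 2732 CPM after doxycycline while Cryab stays between 13 and 15 CPM, and from 72.3 to 211 CPM untreated with Cryab at 1.57 to 3.55 CPM.

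HSP90 and the mitochondrial chaperonin did not pass the test. Hsp90aa1, the inducible cytosolic HSP90, had 287, 269 and 238 CPM after doxycycline and 289, 254 and 264 CPM untreated (log2 fold change -0.02, 95% interval -0.22 to 0.18, adjusted p = 0.903). Hsp90ab1, the constitutive form, had 325, 273 and 255 CPM after doxycycline and 306, 267 and 275 CPM untreated (log2 fold change 0.01, 95% interval -0.22 to 0.24, adjusted p = 0.966). In both genes the groups overlapped, and the intervals leave room for changes of up to 0.24 on the log2 scale in either direction. Hspd1 encodes HSP60, the barrel of the mitochondrial chaperonin, and Hspe1 encodes HSP10, its lid. They lie head to head on chromosome 1 and share the region between their starts, where 4 units of the heat shock element stand in a row. The Hspe1 window is shown because this unbroken run of units is longer than that of Hsph1, in a gene that was not called. It is chr1:55087898-55088197 on the plus strand of GRCm38.p6, with the units in capitals.
Hspe1: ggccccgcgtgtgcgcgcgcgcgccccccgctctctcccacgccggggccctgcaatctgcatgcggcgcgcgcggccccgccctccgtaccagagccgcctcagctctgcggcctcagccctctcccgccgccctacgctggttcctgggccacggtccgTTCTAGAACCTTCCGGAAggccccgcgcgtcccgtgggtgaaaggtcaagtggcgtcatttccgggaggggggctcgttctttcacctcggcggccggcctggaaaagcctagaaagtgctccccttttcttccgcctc
Hspd1 had 210, 218 and 181 CPM after doxycycline and 222, 208 and 209 CPM untreated (log2 fold change -0.07, 95% interval -0.27 to 0.12). Hspe1 had 43.8, 46.4 and 36.9 CPM after doxycycline and 47.7, 42.3 and 44.3 CPM untreated (log2 fold change -0.08, 95% interval -0.37 to 0.21). In both genes doxycycline replicate 3 was the lowest of the 6 libraries and the groups overlapped. By edgeR's quasi-likelihood test 0 of the 4 HSP90 and chaperonin genes were called, 0 had an unadjusted p under 0.05, and DESeq2 and limma-voom called 0.

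RefSeq windows were matched by symbol for 27 of 34 members. The facing pair GAANNTTC or TTCNNGAA was in the windows of 15 of these 27 (55.6%), against 17% of all 27025 genes with a window. The triple GAANNTTCNNGAA or TTCNNGAANNTTC, which contains the pair, was in 5 of 27 (18.5%), namely Chordc1, Dnajb6, Hspd1, Hspe1 and Hsph1, against 0.662% of all genes. Both strands were searched. Of these 5, only Hsph1 passed the test, and of the 4 called members Hspa1b and Hsph1 held a pair and Hspb7 held none, while no window was matched for Cryab.

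The J proteins hand clients to HSP70 and start its ATP cycle. Of 8 members, 0 passed edgeR's quasi-likelihood test, 2 had an unadjusted p under 0.05, and DESeq2 and limma-voom also called 0. The 2 were Dnajb1 and Dnajb2. Dnajb1, the stress-inducible HSP40, had 59.1, 61.4 and 63.9 CPM after doxycycline, against 71.8, 67.6 and 84.6 CPM untreated. The groups did not overlap, and the log2 fold change was -0.28 (95% interval -0.53 to -0.03, adjusted p = 0.166). Dnajb2, a J protein of neurons that passes ubiquitinated clients to the proteasome, had 22.0, 19.1 and 25.4 CPM after doxycycline, against 27.0, 33 and 30.3 CPM untreated (log2 fold change -0.44, adjusted p = 0.154), again without overlap. The other 6 had positive log2 fold changes of 0.09 to 0.28 with overlapping groups. They were Dnaja1 (0.13), Dnaja2 (0.10) and Dnaja4 (0.28), of the class most like bacterial DnaJ, and Dnajb4 (0.14), Dnajb5 (0.09) and Dnajb6 (0.12), the last known for keeping polyglutamine proteins from aggregating. Correcting for GC content and length, which shifted the median of all genes to -0.06, turned Dnaja1 to -0.10, Dnaja2 to -0.08 and Dnajb4 to -0.07. Dnaja4 had 37.0, 51.3 and 36.2 CPM after doxycycline and 32.6, 32.9 and 37.0 CPM untreated, with doxycycline replicate 2 above all others, and Wdr61 overlaps 44.1% of its exonic bases on the other strand. Dnajb5 had 26.2, 10.2 and 16.7 CPM after doxycycline and 17.1, 17.7 and 15 CPM untreated, and here doxycycline replicate 2 was the lowest library.

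The 5 co-chaperones had negative log2 fold changes of -0.19 to -0.06, except that Bag3 was at 0.16 without doxycycline replicate 2, and 0 passed edgeR's test, DESeq2 or limma-voom, with 1 at an unadjusted p under 0.05. That 1 was Fkbp4, FKBP52, a prolyl isomerase that rides with HSP90 on steroid receptors. Fkbp4 had 149, 148 and 140 CPM after doxycycline, against 174, 158 and 165 CPM untreated, without overlap (log2 fold change -0.19, 95% interval -0.35 to -0.02, adjusted p = 0.166). Stip1, or HOP, passes clients from HSP70 to HSP90, and had 185, 152 and 142 CPM after doxycycline and 183, 160 and 171 CPM untreated. Ahsa1, AHA1, which speeds up the ATPase of HSP90, had 87.9, 93.7 and 76.8 CPM after doxycycline and 101, 88.5 and 95.4 CPM untreated. The groups overlapped in both genes. Chordc1, a zinc-binding HSP90 partner, had 82.6, 85.6 and 75.1 CPM after doxycycline and 91.8, 84.1 and 84.7 CPM untreated (log2 fold change -0.10, adjusted p = 0.556). With the correction for GC content and length the value for Chordc1 was -0.44 (adjusted p = 0.0424). Bag3 scaffolds HSP70 and Hspb8 for autophagy of damaged proteins. It had 84.3, 41.0 and 62.6 CPM after doxycycline and 70.0, 62.2 and 63.9 CPM untreated, so its doxycycline libraries lay on both sides of the untreated ones (log2 fold change -0.06, adjusted p = 0.894).

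Of the heat shock factors, Hsf1 is the main activator of the heat shock response and Hsf2 a relative active in development. Hsf1 had 68.9, 47.3 and 58.3 CPM in doxycycline replicates 1, 2 and 3, against 80.8, 77.6 and 79.2 CPM in untreated replicates 1, 2 and 3. The untreated libraries were nearly equal and all above the doxycycline ones. Means were 58.1 ± 10.8 CPM after doxycycline and 79.2 ± 1.63 CPM untreated, a log2 fold change of -0.45 (SE 0.14, 95% interval -0.76 to -0.14) that did not pass edgeR's test (adjusted p = 0.0957) but passed DESeq2's (adjusted p = 0.0316). Hsf2 had 69.0, 68.8 and 63.1 CPM after doxycycline and 56.3, 59.0 and 63.1 CPM untreated (log2 fold change 0.17, adjusted p = 0.327). The groups of Hsf2 met at 63.1 CPM, the value of replicate 3 in each, and with the correction for GC content and length its value was -0.18.

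Levels between members can be compared only per length of transcript. On the scale of CPM per kilobase of exon, Hsp90ab1 stood first, with 94.8 ± 12.1 after doxycycline and 94.1 ± 6.85 untreated. Hspd1 followed with 76.8 ± 7.48 after doxycycline and 80.7 ± 2.95 untreated, and Stip1 with 75.8 ± 10.5 after doxycycline and 81.3 ± 5.50 untreated, a difference between the 2 genes within their spread. Hsp90aa1 (67.3 ± 6.33 after doxycycline, 68.4 ± 4.50 untreated), Hspa9 (62.1 ± 4.00, 68.2 ± 3.69) and Hspa8 (60.9 ± 5.59, 63.4 ± 3.55) came next and likewise lay within their spread of each other. Of the called members, Hsph1 ranked 14 and Hspa1b 22 of 34 in the untreated tumours. Hsph1 had 16 ± 1.51 CPM per kilobase after doxycycline and 21.7 ± 1.71 untreated, and Hspa1b had 3.54 ± 0.308 after doxycycline and 7.49 ± 1.80 untreated. Cryab, with 9.41 ± 0.660 after doxycycline and 1.58 ± 0.719 untreated, and Hspb7, with 3.09 ± 0.777 after doxycycline and 0.476 ± 0.0308 untreated, stood among the last 3 of 34 in the untreated tumours. Of the 50-base stretches of Hspa8, Hsp90aa1 and Hspd1, 52.7%, 58.5% and 44.8% also occur in other genes, mostly in 1 processed pseudogene each (45.3%, 51.5% and 42.8%), so their levels are uncertain.

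The counts of the most abundant members differed less between a pair of untreated libraries than the library totals did. Untreated replicate 2 held 1.23 times the counts of untreated replicate 1. The median count ratio of these libraries was 1.23 over genes at 0.05 to 0.1 counts per exonic base, 1.08 over the 52 genes above 1, and 1.05 over the 3 members above 1, Hsp90ab1, Stip1 and Hspd1. Many members of lower abundance also had a ratio under 1.23, such as Hspa2 (0.996) and Bag3 (1.07). Others lay above it, such as Hspb1 (1.37) and Dnajb2 (1.47). Of the 34 members, 9 lay above 0.5 counts per base. All 9 had their lowest doxycycline CPM in replicate 3, the deepest library of that group, and their lowest untreated CPM in replicate 2, the deepest of the other, and 8 of 9 had their highest doxycycline CPM in replicate 1, the shallowest. Among the other 25 members, 13 (52%) were lowest in doxycycline replicate 3, as were 26.6% of all genes tested. The part of depth in these values was not tested.

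**Figure D4:**
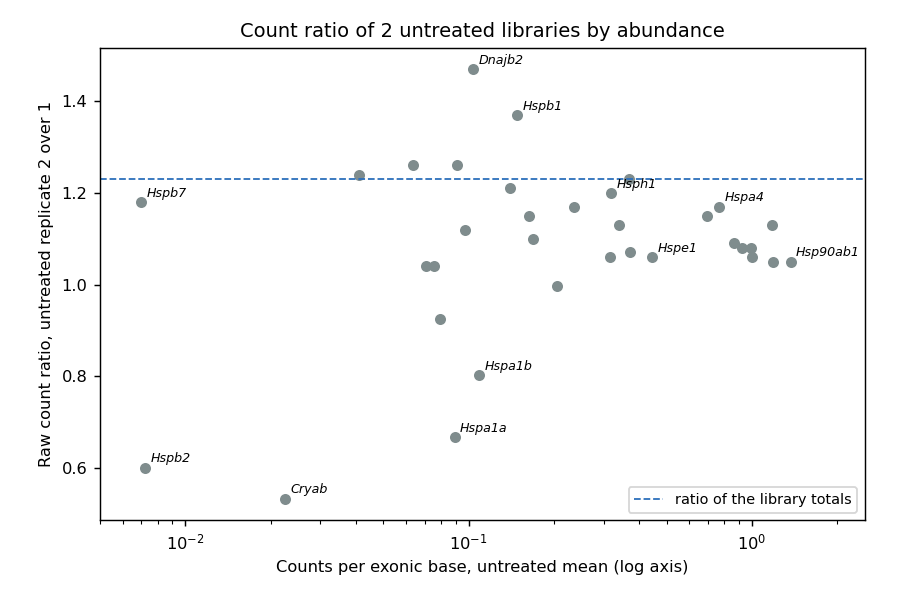
Raw count ratio of untreated replicate 2 over untreated replicate 1 against the untreated mean of counts per exonic base (log axis), 1 point per member, with the ratio of the library totals (1.23) as a dashed line. Members above 0.5 counts per base, Hsp90ab1 among them, lie below the line, as do many members under 0.5. The scatter is widest among members with few counts such as Hspb2 and Cryab.

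Doxycycline replicate 2 lay outside the range of the other 5 libraries for some members, at shares no higher than over all genes tested. It lay above the other 5 libraries for 5 members (14.7%, against 23.4% of all genes tested), of which Hspb1 was 1.78 times, Hspb7 1.47 times and Dnaja4 1.40 times the mean of doxycycline replicates 1 and 3. It lay below the other 5 for 8 members (23.5%, against 24.6% of all genes tested), with Hspa4l at 0.388, Dnajb5 at 0.473, Bag3 at 0.558 and Hsf1 at 0.744 times that mean. The SD of log2 CPM was wider after doxycycline in 26 of 34 members (76.5%), beside 75.5% of all genes tested. Its median over the members was 0.15 after doxycycline and 0.10 untreated, beside 0.21 and 0.12 over all genes tested. This library also had the highest muscle marker sum, and the part of muscle tissue in these values was not tested.

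Other chaperone and protease genes were compared in the same fit, from 7 lists of 66 genes, of which 63 were tested. In edgeR's quasi-likelihood test 0 were called higher and 3 lower, against 2.84% and 2.18% of all genes tested. At an unadjusted p under 0.05 there were 2 higher and 6 lower, 12.7% of the 63 against 23.9% of all genes tested. DESeq2 and limma-voom gave the same counts of calls. Their median log2 fold change was -0.04. All 3 were among the 11 genes for folding and proteolysis in mitochondria. Clpb, a mitochondrial disaggregase, had 71.1, 61.8 and 74.9 CPM in doxycycline replicates 1, 2 and 3, against 128, 153 and 132 CPM in untreated replicates 1, 2 and 3. The groups lay far apart, and Clpb fell to 0.502 times the untreated level (log2 fold change -0.99, SE 0.11, adjusted p = 0.00579). Dnaja3, the J protein that serves Hspa9, had 72.9, 69.9 and 71.1 CPM after doxycycline, against 122, 112 and 116 CPM untreated (log2 fold change -0.71, SE 0.08, adjusted p = 0.00655). Lonp1, the matrix protease that degrades oxidised proteins, had 218, 193 and 209 CPM after doxycycline, against 285, 269 and 278 CPM untreated (log2 fold change -0.42, SE 0.07, adjusted p = 0.0197). Neither gene's groups overlapped. The matrix members Hspa9, Hspd1 and Hspe1 had log2 fold changes of -0.13, -0.07 and -0.08 that did not pass, and the difference from Clpb and Dnaja3 was not tested. Clpb was called in all 13 alternatives, Dnaja3 was lost without untreated replicate 1 or 3, and Lonp1 was lost without doxycycline replicate 3, without any 1 untreated library and with the replicate block plus offsets for GC content and length.

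In the other 6 lists the gene with the smallest p did not pass. It was Cct4 for the TRiC chaperonin of the cytosol (log2 fold change -0.14, adjusted p = 0.277) and Pfdn6 for prefoldin, which hands actin and tubulin to TRiC (-0.25, adjusted p = 0.283). Among HSP90 co-chaperones it was the myosin chaperone Unc45a (-0.39, adjusted p = 0.130). The list of HSP70 exchange and scaffold factors also held further HSP70-like genes, and there it was the HSP70-like gene Hspa13 (0.27, adjusted p = 0.131). For the other J proteins it was the clathrin uncoating factor Dnajc6 (-0.67, adjusted p = 0.367), and for the other small heat shock proteins and factors Hspb9 (0.71, adjusted p = 0.311). The 8 TRiC subunits had a median of -0.05 and the 6 prefoldin subunits a median of 0.02, beside 0.01 over all genes tested.

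**Figure D5:**
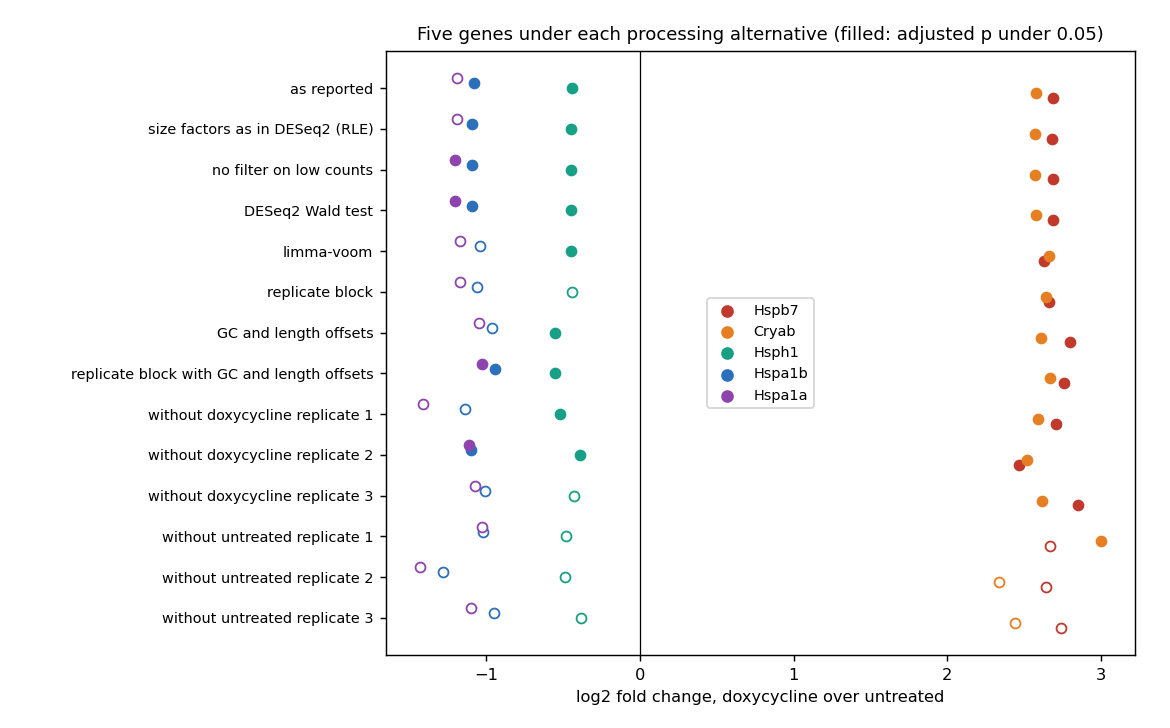
Log2 fold change of Cryab, Hspb7, Hspa1a, Hspa1b and Hsph1 under the reported fit and 13 alternatives, with filled points where the adjusted p was under 0.05. Cryab and Hspb7 stay between 2.34 and 3.0 and Hspa1b between -1.28 and -0.94 in every fit, and open points mark the fits in which a gene did not pass.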

How the data were processed

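The authors deposited read counts per gene. The submitters' processing notes name TopHat2 2.0.8, TopHat, HTSeq and the build mm9, with no role or order. Per the labels, ribosomal RNA was removed with Ribo-Zero and libraries were made with a TruSeq kit. How strand, multiply mapped reads and duplicates were treated is not given in the sources used. The 90 unnamed features (0.0361% to 0.0402% of counts) were left out. Groups follow the treatment label.

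Counts were tested in R 4.3.3 with edgeR 4.0.16 (filterByExpr, TMM factors 0.985 to 1.02, robust quasi-likelihood test, two-sided, Benjamini-Hochberg adjustment over 14809 genes, threshold 0.05). The SE was derived from F, and intervals are 95% intervals. Alternatives were DESeq2 1.42.0, limma-voom 3.58.1, DESeq2's size factors, no filter on low counts, GC and length offsets (mgcv 1.9.3), a replicate block and leaving out each library. Between replicates, chi-square over its degrees of freedom was 5.17 to 29.8, more than counting noise alone would give. Each library was treated as 1 sample, though these values cannot show whether it came from a separate mouse. Exonic lengths and shared 50-base stretches come from a GENCODE annotation of another mouse build, used without coordinates. Promoters are RefSeq's, of GRCm38.p6, not of mm9.

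All 34 members are named. Of the other chaperone genes, those past the threshold are named and, in lists with none, the gene with the smallest p. The members and lists were chosen with earlier results of these data known.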

Additional observations from a re-analysis of the deposited data

How the results depend on the processing

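Cryab and Hspb7 stayed positive, and Hspa1a, Hspa1b and Hsph1 negative, in all 13 alternatives. Genes called higher and lower numbered 892 and 789 with DESeq2 and 215 and 179 with a replicate block, limma-voom called 261 higher, and leaving out 1 library gave 11 to 1244 higher and 12 to 866 lower. Members called lower numbered 4 with DESeq2 (Hspa1a and Hsf1 added), 1 with limma-voom and 0 with the replicate block (adjusted p = 0.0776 for Hspa1b and 0.0635 for Hsph1), and 0 to 3 with 1 library left out, when 0 to 3 were called higher. Same-numbered libraries did not deviate together (correlations -0.01, -0.07 and 0.02), so the block tests only a shared number. Without untreated replicate 2 or 3, 0 members were called and 9 (26.5%) or 7 (20.6%) had an unadjusted p under 0.05, against 18.2% or 14.2% of all genes. Other chaperone genes called lower numbered 1 to 4. The members' median was -0.15 with GC and length offsets and -0.16 with the block added, where that of all genes was -0.06 and -0.07. With 1 library left out it ran from -0.11 to 0.01, positive without doxycycline replicate 3 or untreated replicate 1. The summed Hspa1 pair had -1.10 with limma-voom (adjusted p = 0.0541) and -1.35 to -1.02 with 1 library left out. The cause of these changes was not tested.

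Members near 0 changed sign. Limma-voom gave -0.08 for Hspa4l and -0.04 for Dnajb5, and the replicate block -0.06 and 0.00. GC and length offsets, without and with the block, gave -0.27 and -0.36 for Hspa4l, -0.02 and -0.02 for Hsp90ab1, -0.10 and -0.10 for Dnaja1, -0.08 and -0.09 for Dnaja2, -0.07 and -0.08 for Dnajb4, and -0.18 and -0.17 for Hsf2. With 1 library left out the ranges were -0.07 to 0.10 for Hspa2, -0.16 to 0.38 for Hspa4l, -0.10 to 0.08 for Hsp90ab1, -0.30 to 0.36 for Dnajb5, 0.00 to 0.61 for Hspb1, -0.34 to 0.16 for Bag3, -0.12 to 0.01 for Hspa8, -0.09 to 0.05 for Hsp90aa1, -0.13 to 0.01 for Hspd1 and -0.15 to 0.01 for Hspe1. Depth limits Hspb2 most, at 3 to 19 counts per library.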
